A study of Rattus norvegicus with 2 samples.

Results

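*Fos*, *Fosb*, *Fosl1*, *Fosl2*, *Jun*, *Junb*, *Jund*, *Egr1*, *Atf3* and *Ier2*, the genes of the AP-1 transcription factors and of other immediate early factors, were followed through neonatal rat heart cells that had been given lipopolysaccharide (LPS) or saline. The 10 genes were taken by name and looked up by symbol among the 25399 genes of the deposited matrices. A symbol was found for 9 of them, and *Ier2* is not analysed here.

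AP-1 is a dimer of a FOS family protein and a JUN family protein, or of JUN proteins with each other, and binds short DNA elements in the promoters and enhancers of inflammatory and growth genes. Its genes belong to the immediate early class, whose transcription starts within minutes of a stimulus without new protein synthesis, through kinase cascades that act on factors already bound at their promoters. FOS proteins cannot pair with each other, FOSL1 and FOSL2 lack the strong activation domain of FOS, and JUNB and JUND are generally weaker activators than JUN, so the mixture of subunits matters as well as the amount. In the study's account of intrinsic cardiac adrenergic (ICA) cells, catecholamine-making cells of the heart, AP-1 stands between Toll-like receptor 4 and the enzymes of norepinephrine synthesis, which is the question these genes bear on.

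Hearts of Sprague-Dawley pups aged 1 to 3 days, of both sexes pooled, were digested with 0.125% trypsin, and a Percoll gradient was used to enrich the ICA cells. The cells received saline (control) or 1 µg/ml LPS for 2 h, were detached again with trypsin, and each condition went into 1 droplet library of 3′ ends with unique molecular identifiers (UMIs, 1 tag per captured transcript). With 1 library per condition there was no replicate, no test was made, and treatment and library cannot be told apart. The enrichment leaves mixed cells: most of what was sequenced were fibroblasts.

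The control library held 11531 cells with a median of 12479 UMIs and the LPS library 12689 cells with a median of 9432, of which 11529 and 12681 carried a cluster number from the authors. A barcode found in both libraries occurred 194 times, which is 1.68% of control barcodes and 1.53% of LPS barcodes. The authors named clusters 0, 1 and 7 Fibroblast, cluster 3 ICA and Cardiomyocyte, clusters 4 and 5 Endothelial and cluster 6 Macrophages. Clusters 2, 8, 9 and 10 came without a cell type. Cluster 2 was led by *Rgs5* and *Kcnj8* and is called mural-like (4 of 7 markers at least 5-fold over the other cells), cluster 8 mesothelial-like (5 of 6 markers), cluster 10 Schwann-like (4 of 4 markers), and cluster 9, led by mitochondrial genes, stays unnamed. In cluster 3 all 6 cardiomyocyte markers found were at least 5-fold over the other cells, as were 3 of 4 ICA markers. Of these 3, *Dbh* and *Ddc* had 316 and 663 UMIs there, but *Pnmt* only 2. *Th*, the gene of tyrosine hydroxylase and a defining ICA marker, had 5 UMIs in the whole control library and 4 in the LPS library, and 0 in cluster 3, which allows up to 0.424 and 0.547 UMIs per 1000000 there. *Hsp90aa1* and *Map3k7*, which most cells use, were also listed at 0, so a count near 0 in these matrices need not be the level of the transcript.

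Immediate early genes are known to be switched on through short promoter elements, and the windows shown here are matches to such elements in members described in the results, with *Th* as the gene the study places downstream of AP-1. RefSeq promoters on GRCr8 were found for 7 of the 10 genes (none for *Fos*, *Jun* and *Atf3*), and the 250 bases before the start were searched on both strands for the CArG box (the serum response factor element), the TRE TGACTCA (the classical AP-1 site), the CRE TGACGTCA (the cAMP response element, also bound by ATF and JUN dimers), its core TGACG, which lies within every CRE and is counted there too, and the TATA element TATAAA. In the sequences the capitals mark the match, and each is written along the strand of its gene.
Egr1, farther CArG box: gtcggtccttCCATATTAGGgcttcctgct
Egr1, nearer CArG box: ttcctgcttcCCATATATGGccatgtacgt
Fosl1, farther TGACG core (reverse strand): ctctgctaggtgCGTCAaggggaatcctcg
Fosl1, nearer TGACG core (reverse strand): tatgggcagctgCGTCAgagggggcgtggc
Junb, TGACG core: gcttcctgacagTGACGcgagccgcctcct
Jund, CRE: ccccacccccaTGACGTCAacccacaatgc
Th, CRE: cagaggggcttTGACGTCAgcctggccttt

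The *Egr1* windows lie at chr18:26736963-26736992 and chr18:26736985-26737014 (plus strand), with the matches 105 and 83 bases before the start, and CArG boxes occurred in 1.5% of all 33469 promoters of this length. Of the 7 genes, only *Egr1* held a CArG box. The *Fosl1* windows lie at chr1:212183725-212183754 and chr1:212183789-212183818 (plus strand), 148 and 84 bases before the start, and the *Junb* window at chr19:40080959-40080988 (plus strand), 155 bases before it. A TGACG core was held by 5 of the 7 genes and by 18.2% of all promoters. The *Jund* CRE lies at chr16:18769974-18770003 (minus strand), 221 bases before the start, and the *Th* CRE at chr1:207508269-207508298 (minus strand), 69 bases before it. A CRE was found in 2 of the 7 genes, *Jund* and *Ier2*, and in 1.59% of all promoters, and the TRE in 0 of the 7 and 4.05% of all. A TATA element was found in *Fosb* and *Junb* and in 12.9% of all promoters. These are matches of letters only, and no binding was measured here.

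The members did not move together in LPS. Over all clustered cells *Fos* was lower, *Fosl1* and *Atf3* were several-fold higher, *Junb* was higher with a ratio just under 2, and *Jund* and *Egr1* stayed within a small ratio of control. The level is the summed UMIs of a gene per 1000000 UMIs of the class of cells (CPM), the intervals at 95% cover counting error only, and a member is called higher or lower at a ratio of 1.5 with at least 50 UMIs in both libraries together. By that rule 3 of 8 measured members were higher and 2 lower over all clustered cells, where 6.57% of all 13228 genes with as many UMIs were higher and 18.5% lower. By cluster, 62 pairs of a member and a cluster were measured, of which 22 (35.5%) were higher, 14 (22.6%) lower and 26 neither, against 7.02% higher and 14.3% lower among all gene and cluster pairs. The share of members that were higher stood far from the background, and the share that were lower was nearer to it. These pairs repeat a few genes in the same 2 libraries: *Junb* gave 9 and *Atf3* 6 of the higher pairs, and *Fos* 9 of the lower. They are not independent cases, and the members were chosen with earlier results of these data known. Split by cluster, 4 of 8 measured members were higher and 2 lower in fibroblast cluster 0 (background 6.92% and 19.7%), and likewise 4 and 2 of 8 in fibroblast cluster 1 (6.47% and 13.3%). The endothelial clusters had 3 higher and 1 lower of 8 in cluster 4 (5.64% and 13.2%) and 2 and 1 of 6 in cluster 5 (9.62% and 13.1%), and macrophages 3 and 1 of 7 (8.8% and 30.8%). The mural-like cluster 2 had 2 and 1 of 6 (5.81% and 13.6%), and cluster 3 had 2 and 1 of 5 (4.38% and 5.4%). More members were higher than lower in each of these 7 clusters. The small clusters differed: cluster 7 had 0 higher and 2 lower of 5 (10.5% and 11.7%), cluster 8 had 1 and 1 of 5 (6.96% and 7.04%), cluster 9 had 1 and 0 of 2 (8.18% and 8.9%) and cluster 10 had 0 and 2 of 2 (11% and 6.92%). The median log2 ratio of all genes was −0.13 over all cells and in cluster 0, −0.12 in cluster 2 and −0.30 in the macrophages, and ratios relative to it gave as many calls, 22 higher and 14 lower.

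**Figure D1:**
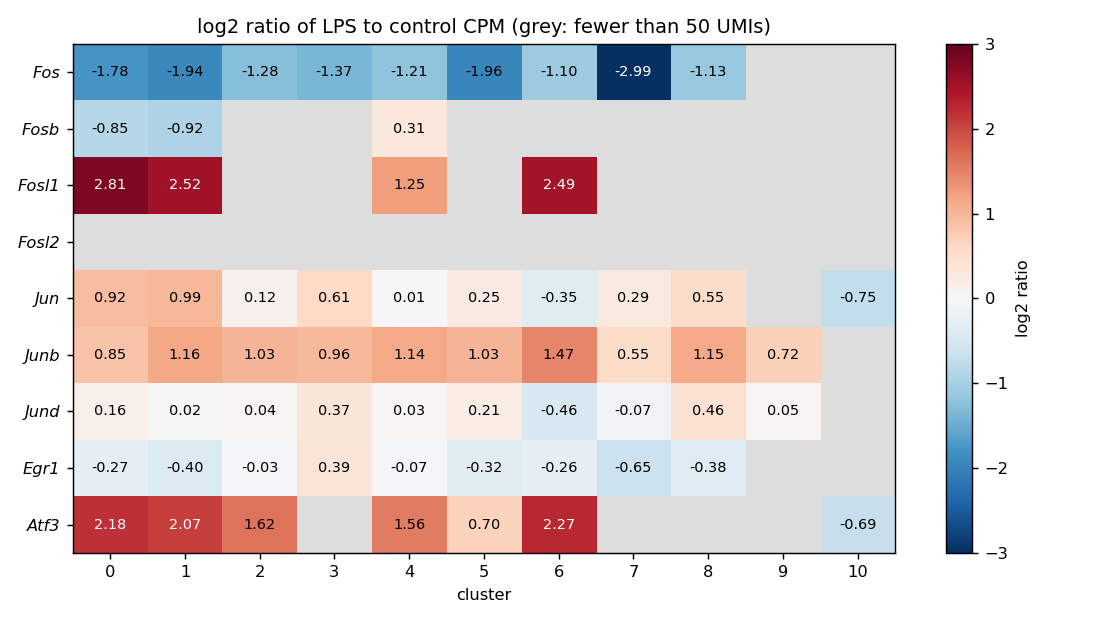
Colours and printed values give the log2 ratio of LPS to control CPM for each gene (vertical) and cluster (horizontal), from red (higher in LPS) to blue (lower), with grey for pairs under 50 UMIs. The *Fos* values are all negative, the *Junb* and *Fosl1* values all positive, and the *Fosb*, *Jun*, *Jund*, *Egr1* and *Atf3* values hold both signs.

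*Fos* encodes the founding FOS subunit, the gene most often used as a sign of recent stimulation. Its level was 44.9 CPM in control (6854 UMIs) and 13.4 CPM in LPS (1709 UMIs) over all clustered cells, 3.35-fold lower (3.18 to 3.54). It was called lower in all 9 clusters where it was measured, by 2.14-fold to 7.95-fold. In the fibroblasts of cluster 0 it went from 51.7 to 15.1 CPM, in those of cluster 7 from 57.5 to 7.24, and in the endothelial cells of cluster 5 from 35.1 to 9.01. In cluster 7, where the ratio was furthest from 1, the summed markers of other cells did not all move the same way. Endothelial markers were lower in LPS, at 144 CPM in control and 55.3 in LPS (3 of 3 measured lower). Cycling markers were also lower, at 119 and 46.0 CPM (2 of 2 measured lower). Mural markers were higher, at 538 and 680 CPM, a ratio of 1.26 (1.15 to 1.39). Cardiomyocyte markers were nearly level, at 128 and 122 CPM, and the fibroblast markers had a ratio of 0.988. The part of other cells in the *Fos* value was not tested. In cluster 9 the control library had 10 *Fos* UMIs and the LPS library 0, at least 2.07-fold lower with a limit of 3 UMIs, and in the Schwann-like cluster each library had 7.

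Fluid in a droplet carries RNA from broken cells, and a cluster can hold *Fos* UMIs that it did not make. The 7 fibroblast markers were taken as a guide to free RNA, though other cells may make some of them. They reached between 21.2% and 46.8% of their cluster 0 level in control cells of cluster 3 and between 18.8% and 53.2% in LPS cells. *Fos* there, at 10.9 CPM in control and 4.2 in LPS, stood at 21.0% of its cluster 0 level in control, just below that range, and at 27.8% in LPS, inside it, so these levels are no higher than free RNA could give. In macrophages *Fos* stood at 36.6% in control, inside the marker range of 28.5% to 42.6%, and at 58.5% in LPS, above a range of 23.7% to 35.8%, though on 22 UMIs. In the mural-like cluster 2 *Fos* stood at 76.1% in control, near the top of a marker range of 24.1% to 76.9% with a median of 30.8%. In LPS it stood at 107% there, above a range of 19.0% to 77.7% with a median of 25.5%. The top of the range was a collagen gene in each library, *Col3a1* in control and *Col1a2* in LPS. Whether the cells of cluster 2 make these collagens themselves was not tested. What free RNA adds to *Fos* in clusters 2, 3 and 6 was not tested, so those calls cannot count as independent cases of the direction. In the endothelial cluster 4 it was above the range in both libraries, 38.0% against at most 33.2% in control and 56.4% against at most 30.8% in LPS. Without the 25% of cells with the largest share of fibroblast marker UMIs, *Fos* was 1.46-fold lower in cluster 3 and 1.4-fold lower in cluster 4, against 2.59-fold and 2.31-fold with them, and neither reached a call.

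*Fosb*, the closest relative of *Fos*, was scarce. It had 2.74 CPM in control and 1.49 in LPS over all clustered cells, 1.84-fold lower (1.55 to 2.19), and was measured in 3 clusters. It was lower in fibroblast clusters 0 and 1, by 1.81-fold and 1.89-fold, and neither in endothelial cluster 4, where 24 and 26 UMIs gave a ratio of 1.24 (0.683 to 2.25). The ratio in cluster 4 over that in cluster 0 was 2.24 (1.23 to 4.07), an interval for counting error above 1.

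*Fosl1*, which encodes FRA-1, the FOS protein usually made later in a response, went the opposite way to *Fos*. Its level was 1.04 CPM in control and 5.53 CPM in LPS over all clustered cells, a ratio of 5.31 (4.46 to 6.34), and it was higher in each of the 4 clusters where it was measured. In cluster 0 it went from 0.718 to 5.04 CPM (ratio 7.02) and in cluster 1 from 0.916 to 5.26 (ratio 5.75). Macrophages held the most in both libraries, 7.38 CPM in control and 41.4 CPM in LPS (23 and 103 UMIs), a ratio of 5.61 (3.54 to 9.24). The ratio was smaller in endothelial cluster 4, 2.38 (1.44 to 4.05), and its quotient over that of cluster 0 was 0.339 (0.195 to 0.590). The LPS level of the macrophages was 4.35 times (2.27 to 9.34) that of the next cluster. Their control level was 2.74 times (0.827 to 14.2) that of the next, cluster 8 with 3 UMIs, so counting error did not separate them. The LPS levels of clusters 0, 1 and 4 differed by less than their counting intervals. In cluster 3, *Fosl1* had 1 UMI in control and 12 in LPS, and its LPS level there, 43.4% of that of cluster 0, lay inside the range of the fibroblast markers. *Fosl2*, the gene of FRA-2, had 32 and 15 UMIs in the whole libraries and was measured in no cluster.

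With less *Fos* and more *Fosl1*, the FOS family had another make-up in the LPS library. UMIs are counted at the 3′ end without a length correction, so the shares of a family are shares of captured tags. *Fos* made up 91.8% (91.2 to 92.5) of the FOS family UMIs of all clustered control cells and 65.3% (63.4 to 67.1) of those in LPS, and *Fosl1* 2.13% (1.81 to 2.48) and 26.9% (25.2 to 28.7). The summed family was 2.38-fold lower in LPS, 48.9 against 20.5 CPM. Macrophages were the only cluster in which the summed FOS family was higher in LPS, 50.7 against 29.2 CPM, a ratio of 1.73 (1.31 to 2.3), and there *Fosl1* was 25.3% of the family in control and 81.7% in LPS. In endothelial cluster 4 the corresponding *Fosl1* shares were 8.89% and 30.9%.

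**Figure D2:**
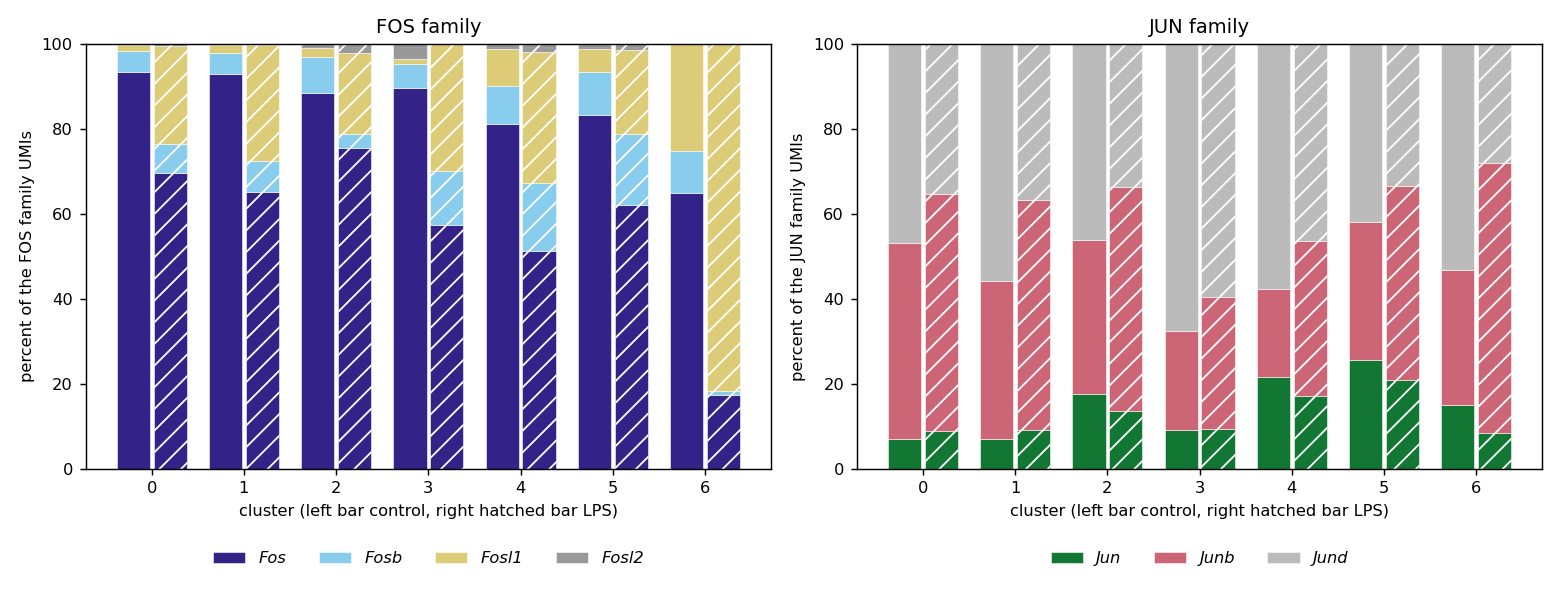
Stacked bars give each gene's percent of the FOS family UMIs (left) and JUN family UMIs (right) for clusters 0 to 6, plain for control and hatched for LPS. The *Fosl1* share of the FOS family is larger in LPS in each of these clusters, reaching 81.7% in the macrophages, and the *Junb* share of the JUN family is larger in each.

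*Jun* encodes the subunit that JNK phosphorylates. Over all clustered cells it went from 26.0 CPM (3973 UMIs) in control to 38.2 CPM (4873 UMIs) in LPS, a ratio of 1.47 (1.41 to 1.53), just short of a call. By cluster its ratio spread over both directions: higher in 3 of 10 clusters, lower in 1 and neither in 6. Fibroblast clusters 0 and 1 carried the largest ratios, 15.1 to 28.6 CPM in cluster 0 (1.90, 1.77 to 2.03) and 13.9 to 27.7 CPM in cluster 1 (1.99, 1.74 to 2.29), while fibroblast cluster 7 had 1.22 (0.756 to 1.99) on 33 and 42 UMIs. Endothelial cluster 4 had 90.5 and 91.0 CPM, a ratio of 1.01 (0.918 to 1.10), and the mural-like cluster 2 had 53.5 and 58.2 CPM, a ratio of 1.09 (0.959 to 1.24). In macrophages *Jun* had 46.2 CPM in control and 36.2 in LPS, and the ratio of 0.783 (0.595 to 1.03) stood near that of the median gene in these cells, 0.810. Divided by the ratio of cluster 0, the ratios of clusters 2, 3, 4, 5, 6 and 10 had counting intervals wholly below 1, from 0.804 (0.649 to 0.996) in cluster 3 to 0.314 (0.206 to 0.479) in cluster 10. The clusters with the lowest control level of *Jun*, 0 and 1, were thus those with the largest ratio, and the spread between cell types was smaller in the LPS library: cluster 4 stood at 600% of cluster 0 in control and 318% in LPS.

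The study split cluster 3 further and reported raised *Jun* after LPS in a small subcluster of it, its ICA cells. That split was not rebuilt here, so the values below are for other sets of cells. In the whole of cluster 3, *Jun* had 172 UMIs in control and 203 in LPS, and the ratio of 1.52 (1.24 to 1.88) lay at the edge of a call, where 4.38% of 8465 genes were higher. With mitochondrial and ribosomal protein genes left out of the total it was just under the limit (log2 ratio 0.58). Its level was 161% and 129% of that of cluster 0, above the range of the fibroblast markers in both libraries. That comparison concerns the level only. How much of the level, and of the ratio, came from free RNA was not tested. The cells of cluster 3 with at least 1 *Dbh* UMI, the gene of dopamine beta-hydroxylase, numbered 156 in control and 121 in LPS. They held 30 and 28 *Jun* UMIs, 20.5 against 38.7 CPM and a ratio of 1.89 (1.09 to 3.27), and the other cells of the cluster a ratio of 1.45 (1.16 to 1.83). These intervals overlap, but the ratios were not compared directly, so whether cells with and without *Dbh* differ cannot be said. In the same *Dbh* cells *Junb* had a ratio of 1.64 (1.2 to 2.24), *Jund* 1.33 (1.10 to 1.61) and *Egr1* 1.01 (0.618 to 1.62), while *Fos* had 13 and 5 UMIs and *Atf3* 1 and 4. Since a *Dbh* UMI is found more easily in a deeper cell, this choice favours cells with many UMIs, with medians of 8200 and 5379 against 7454.5 and 5228.5 in the rest.

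**Figure D3:**
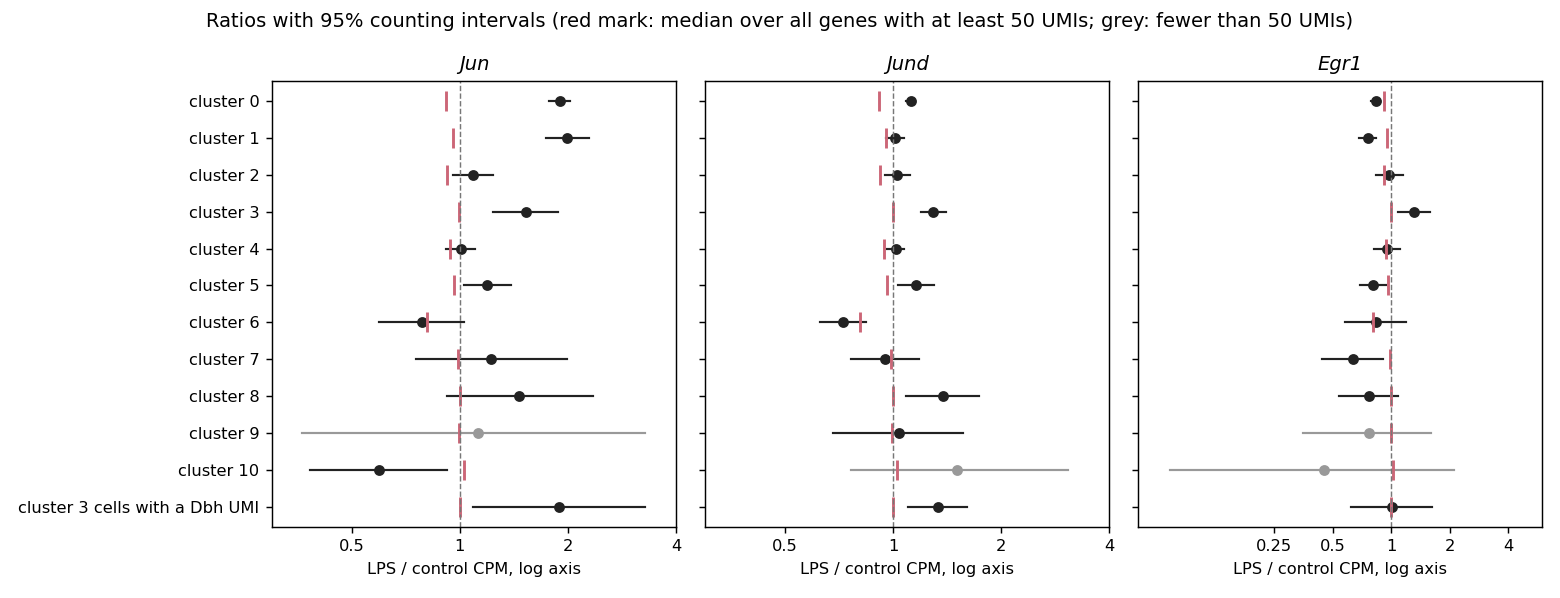
Points give the ratio of LPS to control CPM on a log axis for *Jun*, *Jund* and *Egr1* in each cluster and in the cluster 3 cells with a *Dbh* UMI, lines the 95% counting intervals, red marks the ratio of the median gene, and grey classes under 50 UMIs. The *Jun* points run from 0.596 in cluster 10 to 1.99 in cluster 1, while the *Jund* points of the measured clusters stay between 0.726 and 1.37.

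*Junb* encodes a JUN protein that can oppose JUN at some promoters. It was higher in LPS in more clusters than any other member. Over all clustered cells it went from 93.4 CPM (14248 UMIs) to 181 CPM (23040 UMIs), a ratio of 1.93 (1.89 to 1.98), and all 11 clusters had a ratio above 1 with a counting interval above 1. It was called higher in 9 of 10 measured clusters, the exception being the fibroblasts of cluster 7 with 1.47 (1.2 to 1.79). Among the measured clusters macrophages had the largest ratio, from 98.6 to 272 CPM (2.76, 2.41 to 3.17), and their ratio was 1.54 times (1.34 to 1.76) that of cluster 0. Cluster 3 had 62.3 and 121 CPM, a ratio of 1.95 (1.72 to 2.2), at levels 62.4% and 67.5% of cluster 0 and so above the fibroblast marker range. How much of these levels, and of the ratio, came from free RNA was not tested. In control the levels of the clusters lay close together, from 55.6 to 116 CPM, and clusters 0, 6 and 5, which follow each other in the order, were not separated by their counting intervals.

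*Jund*, whose protein is present in most resting cells, was the most abundant JUN gene in control with 121 CPM, and had 132 CPM in LPS, a ratio of 1.09 (1.07 to 1.11). It was neither higher nor lower in 10 of 10 measured clusters. Endothelial cluster 4 held the most, 243 and 247 CPM, followed by cluster 3, which went from 180.0 to 233 CPM (ratio 1.29, 1.2 to 1.4). Clusters 4 and 3 were separated by counting error in control (1.35 times, 1.26 to 1.44) but not in LPS (1.06 times, 0.990 to 1.13). In macrophages *Jund* was at 165 CPM in control and 120 in LPS, a ratio of 0.726 (0.628 to 0.839) beside 0.810 for the median gene. With *Junb* higher and *Jund* nearly level, *Junb* made up 38.8% (38.3 to 39.3) of the JUN family UMIs in control and 51.4% (51.0 to 51.9) in LPS, *Jund* 50.4% and 37.7%, and *Jun* 10.8% and 10.9%. The summed family had 241 CPM in control and 351 in LPS, a ratio of 1.46 (1.44 to 1.48). In cluster 3 *Jund* stayed the main JUN gene in both libraries, 67.5% (65.3 to 69.6) and 59.5% (57.4 to 61.6).

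*Egr1* encodes a zinc finger factor, not an AP-1 subunit, that is induced through serum response factor at CArG boxes such as those shown above. It had 44.7 CPM in control and 37.9 in LPS over all clustered cells, a ratio of 0.848 (0.817 to 0.880), a little below the 0.913 of the median gene. It was lower in 1 of 9 measured clusters, the fibroblasts of cluster 7 (54.8 to 34.9 CPM, 1.57-fold lower with an interval of 1.10 to 2.27), and neither in the rest. Cluster 3 was the only cluster with a ratio above 1, 31.8 to 41.8 CPM (1.31, 1.09 to 1.59), and its quotient over the ratio of cluster 0 was 1.58 (1.31 to 1.91). These intervals cover counting error only, and *Egr1* was unevenly spread over the LPS cells. With an equal number of UMIs drawn from every cell, its mean there went from 0.0634 to 0.117, past the limit for a call. Of those cells, 0 in control and 8 in LPS held 3 or more *Egr1* UMIs. The shares with any were 6.10% and 7.24%, a difference of 1.13 points whose interval takes in no difference (−1.23 to 3.47). Endothelial cluster 5 had the highest level in both libraries, 85.4 and 68.6 CPM, and the neighbour in that order, the mesothelial-like cluster 8 with 72.0 and 55.2 CPM, did not differ from it beyond counting error. Summed over all clustered cells, *Fos* and *Egr1* were thus near equal in control (44.9 and 44.7 CPM) and apart in LPS (13.4 and 37.9). By cluster this held for control cells of cluster 0 (51.7 and 47.0 CPM). It did not hold in cluster 3 (10.9 and 31.8) or cluster 5 (35.1 and 85.4), where they were apart in control already.

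*Atf3* encodes a stress-induced factor that pairs with JUN proteins and limits Toll-like receptor responses. Over all clustered cells it went from 3.11 CPM (475 UMIs) to 9.86 CPM (1258 UMIs), a ratio of 3.17 (2.85 to 3.53), and it was higher in 6 of 7 measured clusters. Cluster 0 had 1.52 and 6.93 CPM, a ratio of 4.54 (3.76 to 5.52). Macrophages had 15.4 CPM in control and 74.4 in LPS, a ratio of 4.83 (3.50 to 6.78), and endothelial cluster 4 had 7.19 and 21.3 CPM, a ratio of 2.96 (2.27 to 3.88). The call in endothelial cluster 5 rested on 19 and 33 UMIs, with a ratio of 1.62 (0.896 to 3.02) whose interval takes in 1, and it was lost (1.44-fold) after thinning to 3000 UMIs. In cluster 3 *Atf3* had 16 UMIs in control and 17 in LPS, too few for a call, with a ratio of 1.37 (0.652 to 2.90), and its quotient over cluster 0 was 0.302 (0.149 to 0.613). Its level in cluster 3 was 148% of that of cluster 0 in control, above the fibroblast marker range, and 44.8% in LPS, inside it.

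The Schwann-like cluster 10, with 16 control and 26 LPS cells, stood apart for *Atf3* and *Jun*. *Atf3* was at 647 CPM in control and 401 in LPS, and *Jun* at 389 and 232 CPM, both the highest levels of all clusters. Both genes are among the 20 that define this cluster (*Atf3* at rank 7 and *Jun* at rank 17 by fold over the other cells), so the high level is a description of the cluster. These were also the only calls of lower *Jun* or *Atf3*, with ratios of 0.596 (0.382 to 0.919) and 0.621 (0.444 to 0.863), where 6.92% of 824 measured genes of the cluster were lower. The *Atf3* call was lost (1.43-fold lower) without the 25% of cells with the largest share of fibroblast marker UMIs. *Junb* in the same cells had 8 UMIs in control and 35 in LPS, a ratio of 3.95 (1.80 to 9.85). As background, JUN is known as a factor of Schwann cells that have lost contact with their axon.

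**Figure D4:**
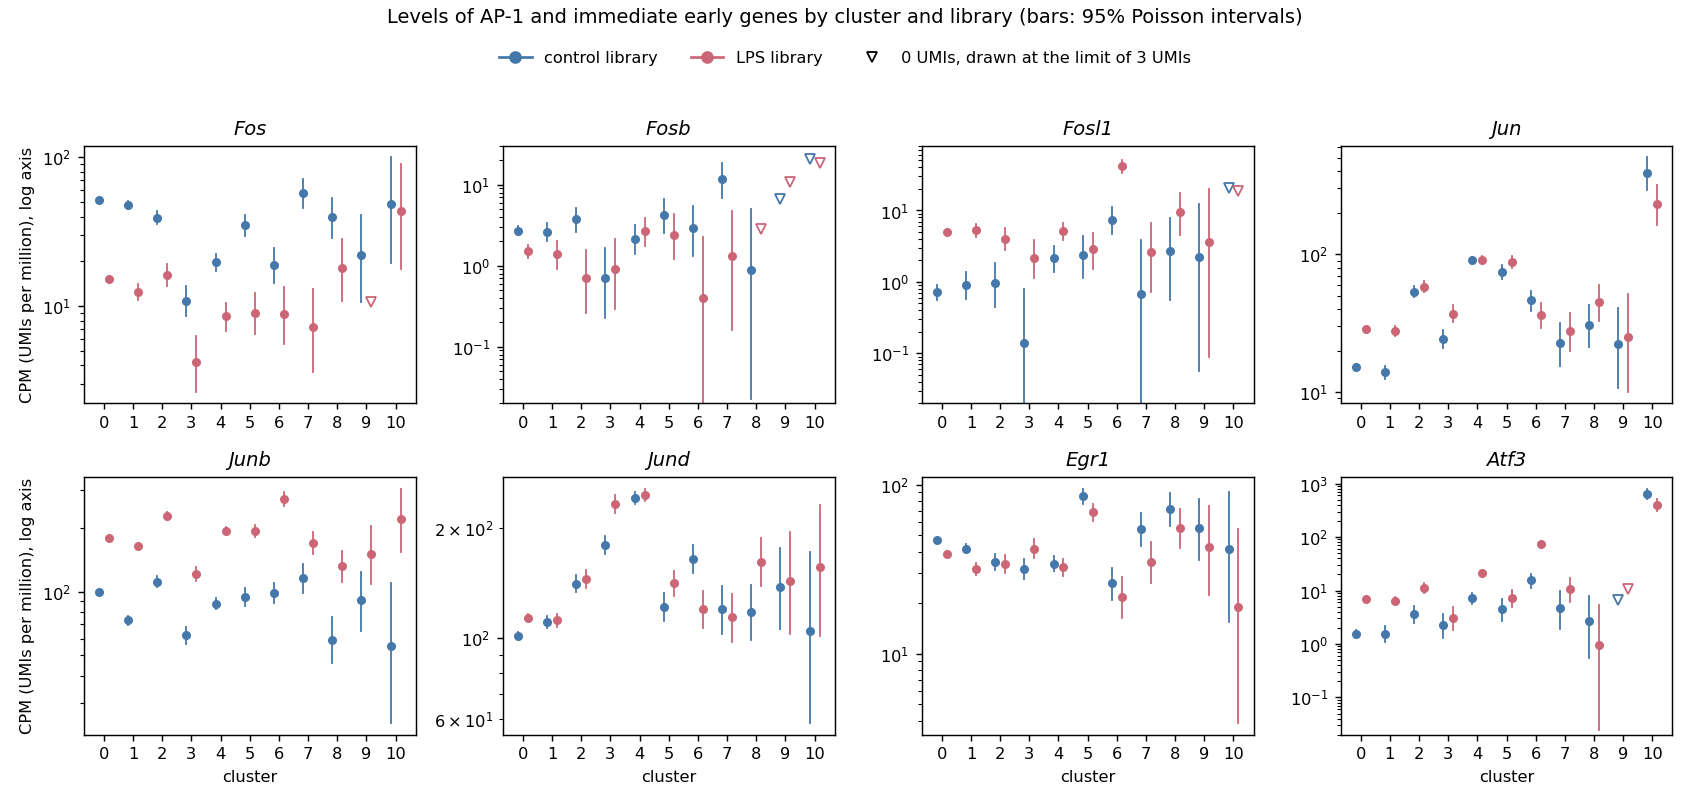
Each panel shows a gene, with the level in CPM on a log axis for each cluster, control in blue and LPS in red, bars for 95% Poisson intervals and open triangles for 0 UMIs at the limit of 3 UMIs. The *Fos* points of LPS lie below those of control in clusters 0 to 8, the *Junb* points of LPS above those of control in all 11, and cluster 10 stands far above the rest for *Jun* and *Atf3*.

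The libraries also differed in how many cells of a cluster had a UMI. With 3000 UMIs drawn at random from every cell (thinning), *Fos* was found in 12.3% (11.5 to 13.1) of control and 4.01% (3.57 to 4.50) of LPS fibroblasts in cluster 0, and before thinning in 33.9% and 10.5%. *Junb* was found in 25.1% and 39.5% of the thinned cells of cluster 0 and in 22.4% (17.7 to 27.8) and 54.1% (48.2 to 60.0) of those of the macrophages, where the unthinned shares were 59.1% and 76.3%. *Atf3* was found in 2.85% (1.24 to 5.53) of the thinned control and 22.1% (17.4 to 27.3) of the thinned LPS macrophages, with up to 9 UMIs in a cell. Both shares were larger in LPS beyond their counting intervals. *Jun* was found in 6.22% (4.68 to 8.08) of the thinned control and 10.0% (8.18 to 12.2) of the thinned LPS cells of cluster 3, but of the unthinned cells, whose median depths were 7526 and 5269 UMIs, 17.9% and 18.8% had one. No cluster is known to lack these genes, so the share that free RNA alone would give was not measured beyond the fibroblast markers above.

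The control cells of cluster 0 with a *Fos* UMI (809 thinned cells against 5791 without) also held more of some other members per cell. *Junb* was 1.43 times (1.27 to 1.6) and *Egr1* 1.32 times (1.10 to 1.59) as frequent as in cells without *Fos*, while *Jund* was at 1.04 times (0.911 to 1.19) and the median of 9040 genes at 1.01. For *Junb*, 3.62% of those genes had as large a ratio or larger. In the LPS cells of cluster 0 with *Fos*, *Junb* was at 1.21 times (1.04 to 1.41), which 21.3% of 8807 genes matched or passed. *Jun* there was at 1.19 times (0.797 to 1.72, 23.2% of genes) and *Egr1* at 1.64 times (1.21 to 2.17, 4.72%). Taking *Egr1* as the reference in LPS, *Jun* was at 1.72 times (1.38 to 2.14), matched or passed by 1.17% of genes. In control the same ratio was 1.14 (0.803 to 1.58), matched or passed by 19.8% of 9040 genes. The endothelial cells of cluster 4, with few *Fos* cells (30 in control and 17 in LPS), gave wide intervals and values on both sides of 1. In control cells with *Fos*, *Junb* was at 1.27 times (0.599 to 2.39, matched or passed by 21.8% of genes). *Jun* was there at 1.97 times (1.10 to 3.28, 4.14%) and *Egr1* at 2.18 times (0.680 to 5.41, 2.29%). In LPS cells with *Fos*, *Jund* was at 1.82 times (1.13 to 2.79, 9.73%) and *Egr1* at 3.33 times (0.877 to 9.03, 0.695%). *Jun* was there at 0.614 times (0.126 to 1.82, 76.2%). In LPS cells with *Egr1*, *Junb* was at 1.59 times (1.16 to 2.15, 6.72%) and *Jun* at 0.502 times (0.214 to 1.01, 92.4%). These are descriptions over cells of 1 library each, which share their handling.

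The factors and kinases around AP-1 were taken as lists, and all of their counts refer to all clustered cells with the background given above. Of 12 possible partners, 11 were measured, of which 4 were higher and 3 lower, with a median log2 ratio of 0.30. *Maff*, a small MAF protein without an activation domain, went from 12.3 to 87.0 CPM (7.05, 6.72 to 7.41) and *Batf*, which pairs with JUN proteins, from 1.23 to 5.81 CPM (4.72, 4.01 to 5.56). *Batf3* followed on few UMIs (36 and 63, ratio 2.09), and *Maf*, a large MAF factor, was 3.33-fold lower, 14.6 against 4.39 CPM. *Maff* was higher and *Maf* lower in clusters 0, 3, 4 and 6 alike, with *Maff* ratios of 8.30, 4.31, 3.97 and 10.5.

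Of 23 other immediate early genes 22 were measured, 5 higher and 4 lower, with a median log2 ratio of 0.16, and the share lower was near that of all genes. *Ier3*, a gene of cell survival, went from 127 to 377 CPM (2.98, 2.93 to 3.03) and *Myc* from 22.2 to 50.5 CPM (2.27, 2.18 to 2.37). *Klf2*, a factor best known from endothelium under flow, was 3.26-fold lower on 199 and 51 UMIs, and *Arc* 1.92-fold lower on 122 and 53 UMIs. *Myc* was higher in cluster 0 (2.33) and cluster 3 (2.81) but had a ratio of 0.949 (0.644 to 1.39) in macrophages.

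Of 21 receptors and kinases upstream, from Toll-like receptor 4 to the ELK factors and SRF, 19 were measured, 2 higher and 4 lower, with a median log2 ratio of −0.16 close to that of all genes. *Map3k8*, the kinase TPL2 that links LPS to ERK, went from 7.90 to 20.9 CPM (2.65, 2.47 to 2.84). *Cd14*, the co-receptor of LPS, had a ratio of 1.80 (1.73 to 1.89), which came from macrophages (533 to 1536 CPM, ratio 2.88), with 0.782 (0.711 to 0.860) in cluster 0. *Map2k6*, a kinase of p38, was 5.68-fold lower, 14.5 against 2.55 CPM, and *Map2k7*, a kinase of JNK, 1.85-fold lower on 82 and 37 UMIs.

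Of 12 genes with well known AP-1 sites, 11 were measured, 6 higher and 1 lower, with a median log2 ratio of 0.69. *Mmp13*, a collagenase, had 16 UMIs in control and 795 in LPS (ratio 59.4, 36.4 to 105), *Ptgs2*, the gene of COX-2, went from 3.38 to 53.8 CPM (15.9, 14.6 to 17.4), *Il6* from 1.21 to 12.1 CPM (10.0, 8.59 to 11.7) and *Cd44* from 23.6 to 76.2 CPM (3.22, 3.10 to 3.35). These 4 have the largest ratios of the list and do not stand for all of it. In cluster 3 *Ptgs2* had 9 and 145 UMIs and *Cd44* a ratio of 3.08 (2.39 to 4). What free RNA adds to these values was not tested. *Dbh*, which is not in this list, had 25.4 CPM in control and 24.8 in LPS in cluster 3, a ratio of 0.976 (0.775 to 1.23). The study reported raised *Dbh* after LPS in its ICA subcluster, and by PCR in cultures treated for longer. The subcluster is a part of cluster 3 in these same libraries and was not rebuilt here, so the value above is for a larger set of cells. The cultures differ in cells and in time. Of 10 heat shock genes 7 were measured and 0 were 1.5-fold higher or lower, but the inducible *Hspa1a* and *Hsp90aa1* were listed at 0 and *Hspa1b* was not matched. Among the measured genes *Hspb1* had the largest difference, a ratio of 0.735 (0.725 to 0.745).

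The genes whose level followed a member most closely were sought over the 20 points of 10 clusters and 2 libraries among 9896 genes, as Pearson's r of log2(CPM + 1). The points share their libraries and free RNA, so r is a description. *Fosl1* was most like *Cd44* (0.93) and the chemokine gene *Ccl3* (0.89), and *Junb* like the chemokine gene *Cxcl1* (0.92), *Sh2b2* (0.91) and the adhesion gene *Icam1* (0.91). *Fos* was most like *Slc2a10* (0.93), *Jun* like *Spsb1* (0.90), *Atf3* like *Atp6v1f* (0.91), *Jund* like *Plekha1* (0.89) and *Egr1* like *Hs3st1* (0.84).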

How the data were processed

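Whole-number UMI counts per gene and cell, deposited by the authors without normalization, came with a table of their cluster and cell type for each cell. The submitters' processing notes name Cell Ranger 2.2.0 and Seurat 2.3.4, and by the study's methods both libraries were joined by canonical correlation analysis and clustered at a resolution of 0.5. The genome build and annotation are not given in the sources used here, so coordinates belong to the RefSeq promoters (GRCr8) alone. No cell was filtered out apart from 2 control and 8 LPS cells without a cluster, and no doublet caller was run. Counts were summed per cluster and library and divided by all UMIs of that class. Intervals are exact Poisson for levels, exact conditional for ratios, Clopper-Pearson for shares and Wald on the log scale for quotients of ratios. They cover counting error only. The depth was 152624585 UMIs in control and 127580475 in LPS. Genes with fewer than 50 UMIs over both libraries of a class were not called. Cells were thinned without replacement with seed 1, which left out 79 LPS cells under 3000 UMIs.

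The members and lists were chosen with earlier results of these data known. Named beside the members were up to 4 genes of each list with the largest absolute log2 ratio over all clustered cells, *Th*, *Dbh*, and the genes of the most similar pattern (at least 500 UMIs, in clusters with at least 100 cells). The steps were tested on simulated data and run with Python 3.11.15 (pandas 2.3.3, numpy 2.4.6, scipy 1.17.1, matplotlib 3.10.9). Alternatives were cell filters, other pooling, denominators and scaling, a minimum of 20 or 200 UMIs, a 2-fold limit and other thinning depths. The 136 repeated symbols, none a member, were not merged. The gene closest in pattern to *Fosb* is not reported here.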

Additional observations from a re-analysis of the deposited data

Results flagged for a closer look

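For *Jun*, *Jund*, *Egr1* and *Atf3* the ratios lay on opposite sides of 1 in different clusters, and these differences were not tested, since each condition has 1 library. *Jun* had its highest ratio of LPS to control in the fibroblasts of cluster 1 (1.99) and its lowest in the Schwann-like cluster 10 (0.596). *Atf3* was highest in macrophages (4.83) and lowest in cluster 10 (0.621). *Jund* ran from 1.37 in the mesothelial-like cluster 8 to 0.726 in macrophages, where the median gene stood at 0.810. *Egr1* ran from 1.31 in cluster 3, where 1% of the LPS cells held 31.5% of its thinned UMIs, to 0.636 in the fibroblasts of cluster 7.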

How the results depend on the processing

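The 77 results were recomputed under those of 13 alternatives that bear on them, between 2 and 11 each, which gave 609 values: 562 moved by less than the counting interval or, for counts of calls, by less than 1.5 times, 47 moved further and 0 changed direction. Of the 36 pairs called, all 36 kept their sign under the alternatives that gave a value, and 30 stayed past 1.5-fold in each. The other 6 fell under it in 1 alternative each: *Fos* in clusters 3 (1.46-fold) and 4 (1.4-fold) and *Atf3* in cluster 10 (1.43-fold) without the cells richest in fibroblast markers, *Atf3* in cluster 5 (1.44-fold) after thinning, *Junb* in cluster 9 (1.48-fold) with at most 20% mitochondrial UMIs, and *Jun* in cluster 3 without mitochondrial and ribosomal protein genes in the total. Counts of higher pairs ran from 15 to 26 around 22. The count of 14 lower pairs became 8 after thinning to 3000 UMIs, 5 with a minimum of 200 UMIs and 9 with a 2-fold limit. Fewer UMIs or a stricter limit make fewer pairs eligible by construction. The difference in the share of cells with a *Jun* UMI in cluster 3, 3.82 percentage points (1.26 to 6.38) at 3000 UMIs per cell, was 1.18 at 1500 UMIs and 0.895 without thinning. For *Fos* in cluster 0 the difference of −8.24 points became −4.77 and −23.3. The log2 ratio of *Jun* in cluster 3 was 0.61, between 0.58 and 0.73 under the alternatives, and in its cells with a *Dbh* UMI 0.92, between 0.60 (without the cells richest in fibroblast markers) and 1.09. No paired analysis was possible because there is only 1 library for a condition.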
